A study of Mus musculus with 36 samples.

Results

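The comparison described here sets XX KO against XY KO mouse gonads at embryonic stage E12.5, and asks which autosomal genes still differed between the chromosomal sexes once the miR-17~92 cluster was gone. It takes in 6 of the 36 libraries of the series, 3 XX KO and 3 XY KO, chosen by the genotype and stage in their labels. KO embryos had both copies of the cluster deleted (miR-17~92 del/del) and carried the transgene Tg(CAG-cre)1Nagy. Both KO groups thus shared the Cre, whose CAG promoter is active throughout the embryo, so the cluster was missing in other tissues too, and the floxed parent allele came on a C57BL/6 × 129S4/SvJae background. Each library held 2 pairs of gonads, taken without the mesonephros (the embryonic kidney beside the gonad), and nothing in the labels links a library to a litter or a day. P-values therefore measure the spread between these pools. For reference, 3 XX and 3 XY control gonad libraries of the same stage were used, which the labels call WT and for which the methods give no further alleles. The KO and control libraries at E11.5, 3 of each sex, served as an earlier time point.

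In the XY gonad the Y-linked gene Sry switches on Sox9 in supporting cells, which then become Sertoli cells and direct the formation of a testis. Fetal Sertoli cells secrete anti-Müllerian hormone, desert hedgehog and other signals, and fetal Leydig cells, the steroid producers, form in response to hedgehog. Without that step the same supporting cells become pre-granulosa cells of the ovary, under Wnt4, Rspo1 and Foxl2.

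The mature microRNAs below are encoded by the cluster that was deleted in both groups. They are the main products of the 6 hairpins of the cluster, at chr14:115043671-115044506 of GRCm38, plus strand, in the RefSeq annotation, and the capitals mark the seed, bases 2 to 8, with which a microRNA pairs with its targets. The 6 sequences fall into 4 seed groups, since miR-17 shares its seed with miR-20a and miR-19a shares its seed with miR-19b.
miR-17-5p: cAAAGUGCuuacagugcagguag
miR-20a-5p: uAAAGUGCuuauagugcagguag
miR-18a-5p: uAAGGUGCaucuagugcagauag
miR-19a-3p: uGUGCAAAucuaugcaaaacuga
miR-19b-3p: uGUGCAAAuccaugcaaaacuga
miR-92a-3p: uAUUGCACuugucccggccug

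Mature microRNAs were not measured in these libraries. The host transcript Mir17hg was counted as a whole gene, and it stood between 66.7 and 83.8 CPM (the count of a gene scaled to the TMM-adjusted size of its library) in the 6 KO libraries and between 13.4 and 37.3 CPM in the 6 controls. A count over the whole host gene does not check a deletion inside it. Its level did not separate the KO groups, with a log2 fold change of -0.04 (XX KO against XY KO, standard error 0.21, FDR = 0.929 by the edgeR quasi-likelihood test).

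The sex labels held in all 6 KO libraries. Xist, the RNA that silences an X chromosome, was between 1340 and 2988 CPM in XX KO gonads and at most 2.65 CPM in XY KO gonads, and the 8 tested Y-linked genes together reached at most 0.362 CPM in any XX KO library and at least 423 CPM in any XY KO library. Total counts were 29527197, 44155275 and 26849689 in XX KO and 17052954, 15117684 and 36794972 in XY KO gonads.

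XX KO replicate 2 was nearer to XY KO libraries than to the other XX KO libraries. Over the autosomal genes its root mean square distance (log2 CPM) was 0.264 to XY KO replicate 3 and 0.355 to XY KO replicate 2, against 0.516 and 0.487 to XX KO replicates 1 and 3. Those last 2 libraries were 0.449 apart. Its Y-linked genes were at background (0.317 CPM in sum), and its Xist level was the highest of the 12 libraries of this stage.

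**Figure D1:**
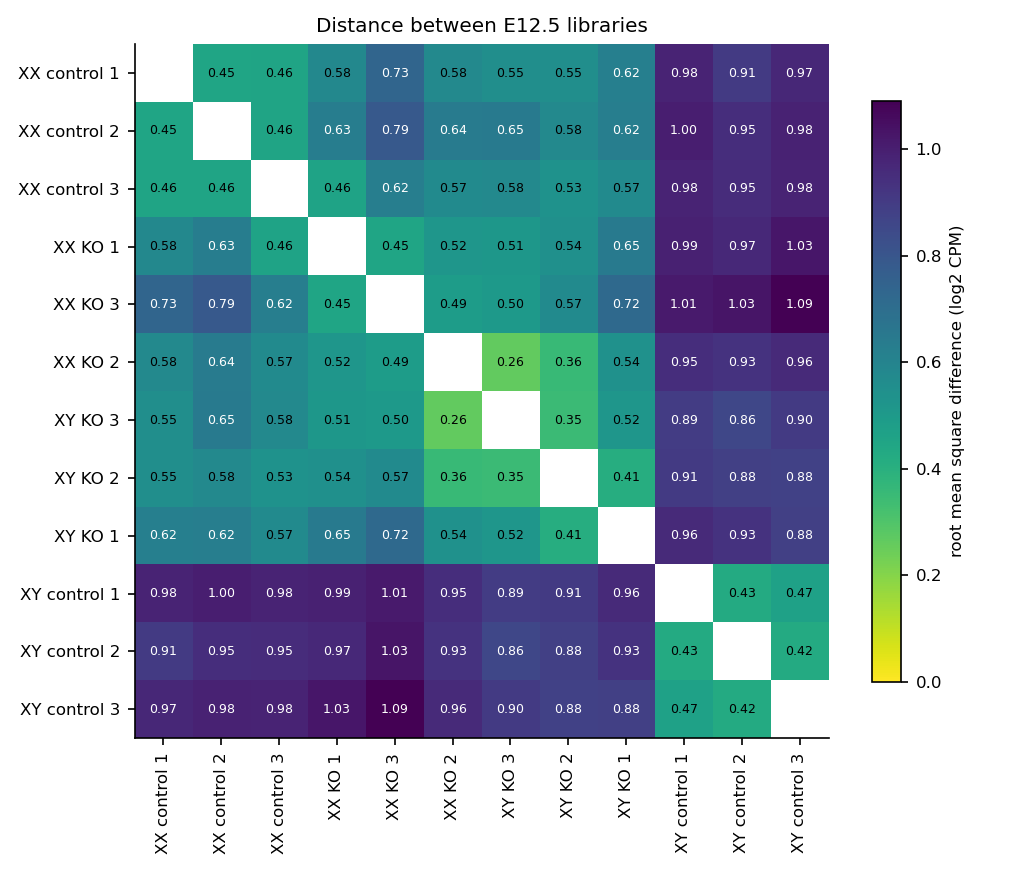
Root mean square difference in log2 CPM over autosomal genes between each pair of the 12 gonad libraries at E12.5, with rows and columns ordered by genotype and darker cells farther apart. XX KO 2 is nearest to XY KO 3 (0.26), and the XY control libraries are far from all other groups.

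XX KO libraries also split by the length of the transcripts. Against the mean of the 3 XX controls, a reference shared by all KO libraries, the tenth of genes with the shortest transcripts (median 1032 bases) had a median log2 difference of 0.25 in XX KO replicate 1, -0.18 in replicate 2 and 0.23 in replicate 3. In the tenth with the longest transcripts (median 8371 bases) the values were -0.39, 0.084 and -0.27. XY KO libraries lay between -0.21 and -0.11 for the shortest and between 0.022 and 0.22 for the longest, so XX KO replicate 2 ran as they did and XX KO replicates 1 and 3 ran the other way. The summed level of 83 ribosomal protein genes, which have short transcripts, was 18400 CPM in XX KO replicate 2 and 26802 and 27240 CPM in the other XX KO gonads. It was 18746 to 19879 CPM in XY KO gonads and 16372 to 22540 CPM in the 6 controls, so on this measure XX KO replicates 1 and 3 stood outside the range of all other libraries. Which of the XX KO libraries departs from the genotype cannot be told apart from these values.

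**Figure D2:**
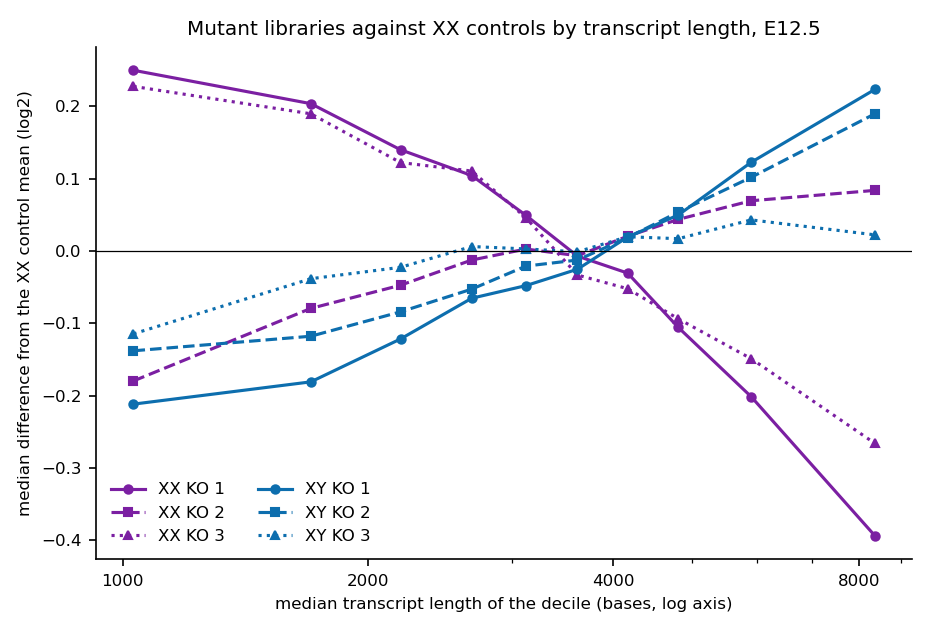
Median log2 difference of each KO library from the mean of the 3 XX controls in 10 classes of genes ordered by transcript length (log axis), with 1 line per library. XX KO 1 and XX KO 3 fall with length, from 0.25 to -0.39 and from 0.23 to -0.27, while XX KO 2 and the XY KO libraries rise.

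Markers of other cells did not set this library apart in a single direction. The erythroid genes summed to 1253 to 1599 CPM in XY KO gonads, with Hba-a2, Hbb-bt and Hbb-bs at 0 in all 6 KO libraries. XX KO replicate 2, at 888 CPM, was the lowest of the KO libraries. Its mesonephric genes summed to 714 CPM, within the 642 to 755 CPM of XX KO libraries (514 to 654 CPM in XY KO), and its 14 macrophage genes to 129 CPM, the highest of the 6 (91.2 to 129 CPM in XX KO, 107 to 112 CPM in XY KO). The part of cell composition or of RNA and library quality in this library's position was not tested. The calls that change without it are given below.

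With all libraries, 22 genes passed the test between the mutant sexes (edgeR quasi-likelihood test, Benjamini-Hochberg FDR under 0.05). Among these called genes, 9 were set aside as sex-linked: Xist, and the Y-linked Uty, Kdm5d, Uba1y, Ddx3y, Eif2s3y, Zfy1, Zfy2 and Sry. Zfy1 and Zfy2 are near copies of each other, so their split is uncertain. Of 13787 autosomal genes tested, 13 (0.0943%) were called. An unadjusted p under 0.05 was held by 2634 (19.1%), 1364 (9.89%) higher in XX KO and 1270 (9.21%) higher in XY KO gonads, and DESeq2 called 53 (0.384%), 18 (0.131%) and 35 (0.254%) in these directions. The count was 12 (0.087%) for genes higher in XY KO gonads and 1 (0.00725%) for genes higher in XX KO gonads. Genes of the male side were Dhh, Gdnf, Cst9, Aard, Mmd2, Adamtsl3, Coch, Gldn, Itga4, Nt5e, Tacr3 and Cadps, and the one of the female side was Irx3.

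XX KO and XY KO libraries did not overlap for any of the 13 genes. Over all autosomal genes, 9.69% had all XY KO libraries above all XX KO libraries and 10.4% the reverse. The 13 were called on these same libraries, so their lack of overlap largely follows from the calls and is no separate evidence. For a single gene, 3 libraries against 3 give no two-sided exact permutation p below 0.1. The plot of levels by genotype shows every library for these genes.

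**Figure D3:**
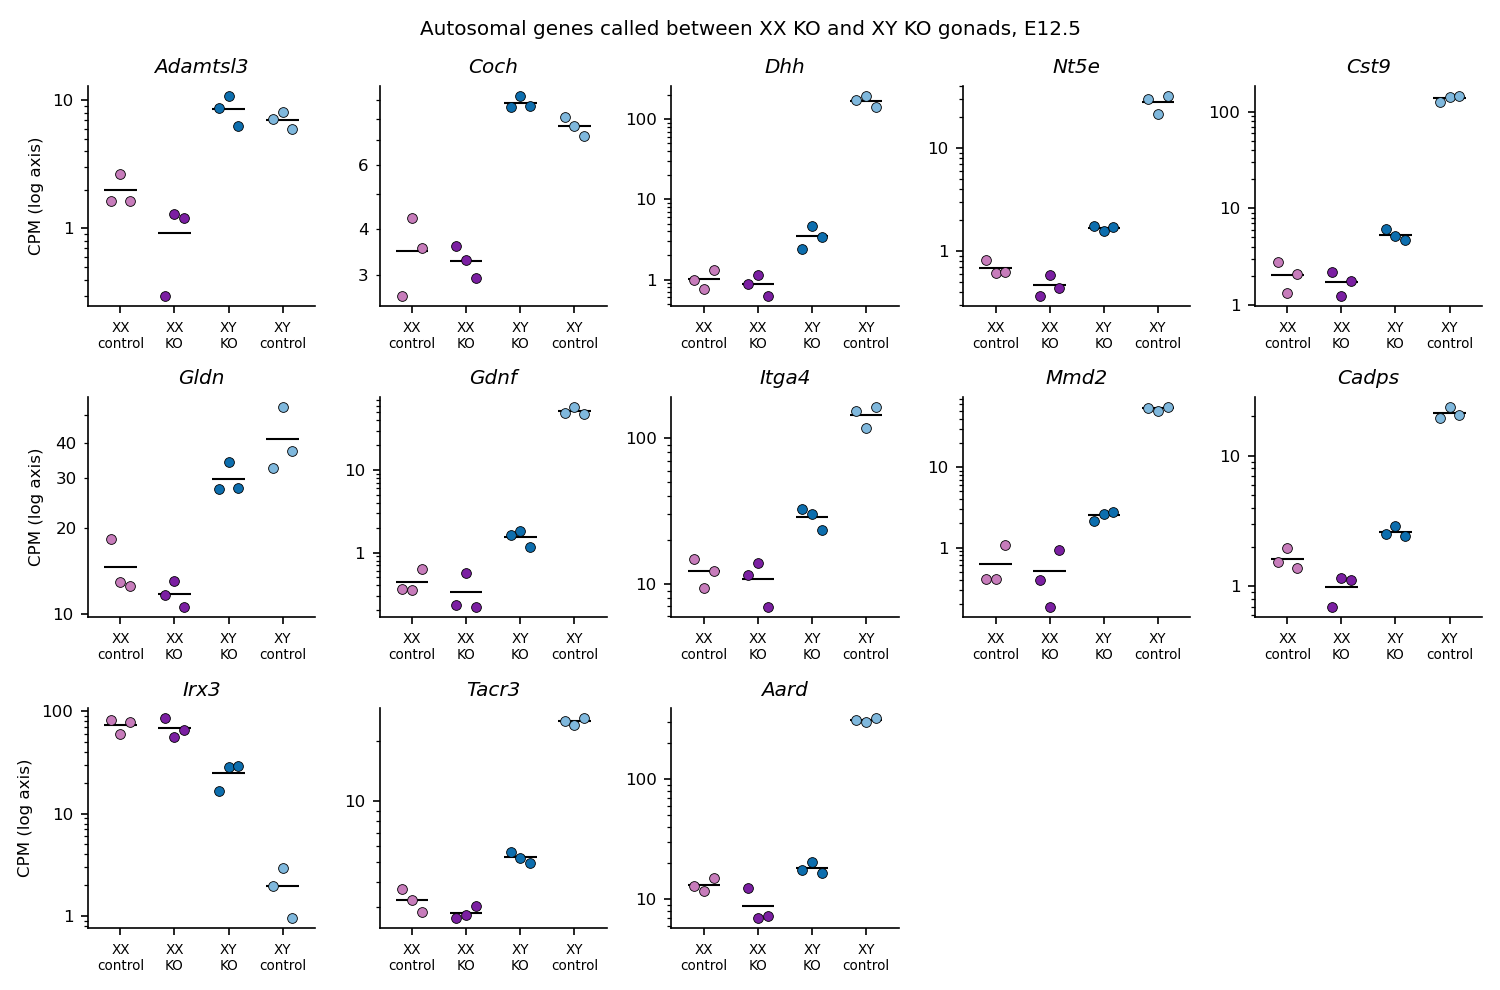
CPM (log axes) of the 13 autosomal genes in each E12.5 library, with 1 point per library and a bar at the group mean (n = 3). In all genes but Irx3 the XY KO points lie above the XX KO points, and Dhh, Gdnf, Cst9, Aard, Mmd2 and Nt5e stay far below the XY control points.

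Signals and products of Sertoli cells made up the first group. Dhh (chr15:98891152-98898540, minus strand, GRCm38), the hedgehog ligand of Sertoli cells, stood at 0.887, 1.13 and 0.617 CPM in XX KO and at 2.4, 4.72 and 3.39 CPM in XY KO gonads. Each XY KO library was above each XX KO library. The XY control libraries, at 172, 195 and 144 CPM, were of another order. Between mutants the log2 fold change was -1.93 (XX against XY, standard error 0.27, FDR = 0.00512) and -7.41 between controls (FDR = 3.47e-10). XY KO gonads thus held 2.05% of the mean Dhh level of XY controls. Rhebl1, which overlaps Dhh on the same strand, did not pass the test between mutants (log2 fold change 0.03, FDR = 0.929).

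Gdnf (chr15:7810846-7837575), a growth factor that Sertoli cells later supply to the stem cells of spermatogenesis, was at 0.23, 0.566 and 0.218 CPM in XX KO gonads. It reached 1.64, 1.82 and 1.17 CPM in XY KO and 49, 57.7 and 47.5 CPM in XY control gonads. The highest XX KO value came from replicate 2, and the groups stayed apart with it. Its difference of -2.03 on the log2 scale (standard error 0.33, FDR = 0.021) rested on 6 to 25 counts per XX KO library and 27 to 43 per XY KO library.

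Cst9 (chr2:148835147-148838738) encodes a cystatin, a family of protease inhibitors, and is known from early Sertoli cells. Its levels were 2.17, 1.22 and 1.74 CPM in XX KO gonads, 6.08, 5.13 and 4.64 CPM in XY KO gonads and between 127 and 146 CPM in XY controls. XY KO gonads kept 3.81% of the XY control mean, with a log2 fold change of -1.63 between mutants (standard error 0.24, FDR = 0.00677).

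Aard (chr15:52040107-52045722), another gene of fetal Sertoli cells, was the nearest called gene to the threshold. It measured 12.3, 6.91 and 7.19 CPM in XX KO and 17.6, 20.4 and 16.4 CPM in XY KO gonads, against 300 to 323 CPM in XY controls. The XX KO library nearest to XY KO gonads was replicate 1, not replicate 2. Its log2 fold change was -1.04 (standard error 0.19, FDR = 0.0495). The first gene past the threshold was Robo2, a guidance receptor, at -0.93 (FDR = 0.0589).

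Mmd2 (chr5:142562358-142608800), a membrane protein gene of the PAQR family, had 0.394, 0.181 and 0.944 CPM in XX KO gonads. In XY KO gonads it was at 2.16, 2.63 and 2.76 CPM, or 4.70% of the XY control mean of 53.6 CPM. Its log2 fold change was -2.42 (standard error 0.41, FDR = 0.0268).

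The second group encodes proteins of the cell surface and extracellular matrix, and 3 of its 4 members were near the XY control level in XY KO gonads. Adamtsl3 (chr7:82335694-82614450), a secreted glycoprotein related to ADAMTS proteases, showed the largest autosomal difference among the 13. It was at 0.296, 1.29 and 1.2 CPM in XX KO gonads and at 8.65, 10.8 and 6.28 CPM in XY KO gonads. XY controls, at 7.1, 8.07 and 6 CPM, lay within the XY KO range or just below it, and XX controls, at 1.63 to 2.67 CPM, were above every XX KO library. Mutants differed by -3.17 on the log2 scale (standard error 0.40, FDR = 0.00241) and controls -1.83 (standard error 0.39, FDR = 0.00275).

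Coch (chr12:51593341-51605771), a matrix protein first known from the inner ear, had 3.62, 3.31 and 2.94 CPM in XX KO and 8.65, 9.25 and 8.71 CPM in XY KO gonads. All 3 XY KO libraries were above all 3 XY control libraries (7.21 to 8.1 CPM), so the mean in XY KO gonads was 116% of that in XY controls. Its log2 fold change was -1.43 (standard error 0.20, FDR = 0.00512) between mutants and -1.13 (standard error 0.20) between controls.

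Gldn (chr9:54286486-54341786) encodes gliomedin, an adhesion protein that helps to assemble nodes of Ranvier in peripheral nerve. It was at 11.7, 13.1 and 10.6 CPM in XX KO and 27.4, 34.2 and 27.7 CPM in XY KO gonads, and XY controls ranged from 32.5 to 53.3 CPM. XY KO and XY control libraries overlapped. The log2 fold change was -1.33 (standard error 0.20, FDR = 0.00906), beside -1.49 between controls.

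Itga4 (chr2:79255426-79333123), an integrin subunit that binds fibronectin and VCAM1, differed from these 3 by its distance from the XY controls. It had between 6.9 and 13.9 CPM in the 3 XX KO libraries, between 23.6 and 32.9 CPM in the 3 XY KO libraries and 118 to 164 CPM in XY controls. XY KO gonads held 19.8% of the XY control mean, without overlap with either group, and with a log2 fold change between mutants of -1.41 (standard error 0.24, FDR = 0.0268).

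The third group holds an enzyme, a receptor and a gene of secretion. Nt5e (chr9:88327197-88372092), the ecto-5′-nucleotidase that makes adenosine outside cells, was at 0.362, 0.589 and 0.436 CPM in XX KO and at 1.75, 1.55 and 1.72 CPM in XY KO gonads. XY controls had 21.5 to 32.2 CPM, and the log2 fold change between mutants was -1.82 (standard error 0.26, FDR = 0.00666). Tacr3 (chr3:134829007-134934579), the receptor of neurokinin B, was at 2.63, 2.74 and 3.01 CPM in XX KO and 5.61, 5.26 and 4.97 CPM in XY KO gonads. It was the smallest of the 13 differences (log2 fold change -0.92, standard error 0.17, FDR = 0.0459).

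Cadps (chr14:12372563-12823079), which primes dense-core vesicles for release, had 0.69, 1.15 and 1.13 CPM in XX KO gonads. In XY KO gonads it had 2.51, 2.9 and 2.43 CPM, and in XY controls 19.5 to 23.5 CPM. Its log2 fold change was -1.38 (standard error 0.24, FDR = 0.0292).

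Irx3 (chr8:91798525-91802067), a homeobox gene of pre-granulosa cells, was the single gene called on the female side. It was at 85.1, 55.3 and 65.4 CPM in XX KO gonads, inside or near the 60.1 to 81.1 CPM of XX controls. XY KO gonads had 16.7, 28.3 and 29.1 CPM, and XY controls 1.96, 2.95 and 0.956 CPM. XY KO gonads thus lay between the XX and XY controls with no overlap on either side. The log2 fold change was 1.47 between mutants (standard error 0.26, FDR = 0.0368) and 5.14 between controls.

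The controls share no library with the mutants, but both comparisons came from 1 fit of the 12 libraries with a shared estimate of spread. Control calls are therefore not independent of the mutant calls. All 13 were called between XX and XY controls in the same direction, where 23.4% of autosomal genes were called, 12.4% higher in XY and 11.1% higher in XX controls. A test of whether the sex difference itself differed between mutants and controls called 10 of the 13 (12.8% of autosomal genes, 7.08% with a positive and 5.77% with a negative value), each with the smaller difference in mutants. Interaction values ranged from 2.02 for Tacr3 to 5.47 for Dhh among male genes. Adamtsl3 (interaction -1.35, standard error 0.54, FDR = 0.13), Coch (-0.29, standard error 0.28, FDR = 0.544) and Gldn (0.16, standard error 0.28, FDR = 0.76) did not pass that test.

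**Figure D4:**
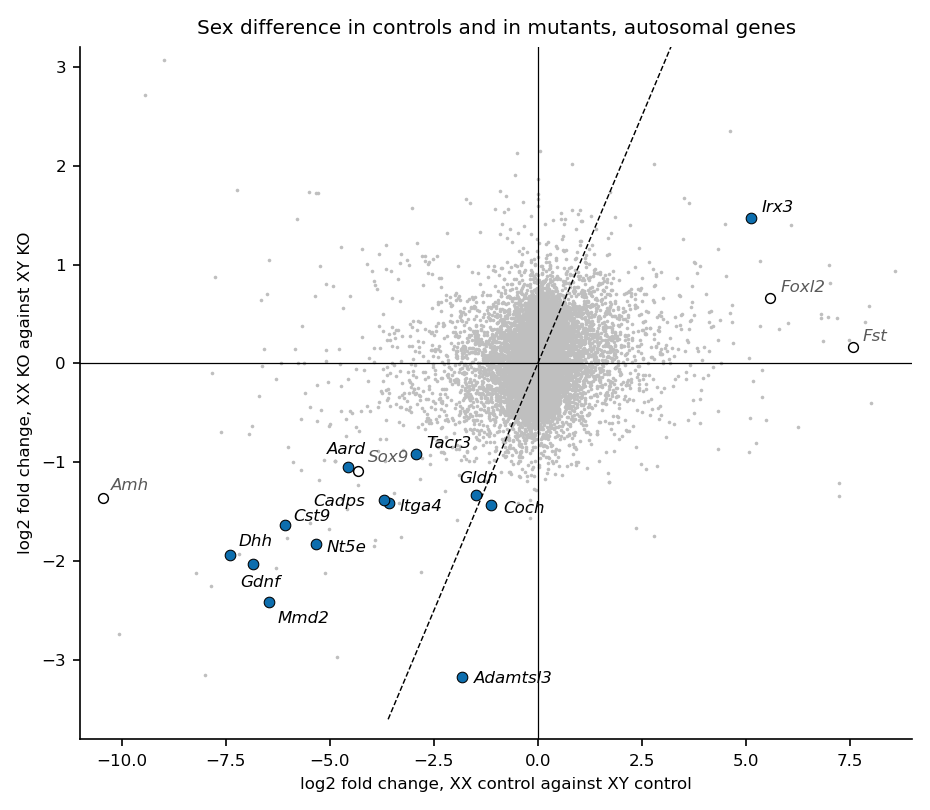
Log2 fold change between XX and XY gonads in controls (horizontal) and in mutants (vertical) for each autosomal gene tested, with the 13 called genes in blue, 4 uncalled marker genes as open circles and a dashed line where both are equal. Coch, Gldn and Adamtsl3 lie near or beyond the dashed line, whereas Amh, at -10.46 in controls, is at -1.36 in mutants.

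Set against XX controls instead of XX KO gonads, the same XY KO libraries differed in the same direction of sex for 11 of the 13 genes (4.76% of autosomal genes called, 3.31% higher and 1.45% lower in XY KO gonads). The XY KO libraries are shared with the main comparison, so this is no separate evidence for their level. Aard (log2 fold change 0.46, FDR = 0.19) and Cadps (0.67, FDR = 0.127) did not pass. All XY KO libraries lay above all XX control libraries for the 12 male genes, where 14.9% of autosomal genes did so.

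The male side of the control difference as a whole was nearly flat between mutants. Of the 186 autosomal genes at least 8-fold higher in XY than in XX controls, 8 were called higher in XY KO gonads, where 0.087% of autosomal genes were. The median log2 fold change of the 186 was -0.20 between mutants beside -4.02 between controls. The XY KO libraries were all above the XX KO libraries for 32 of the 186 (17.2%, beside 9.69% of all autosomal genes). They were all below for 12 (6.45%, beside 10.4% of all autosomal genes). The median gene of the 186 stood at 8.27% of the XY control level in XY KO gonads, and at 7.74% in those of XX KO embryos. On the female side, 1 of 112 genes at least 8-fold higher in XX controls was called higher in XX KO gonads, where 0.00725% of autosomal genes were. The median of the 112 was 0.23 between mutants beside 3.93 between controls. The XX KO libraries were all above for 25 (22.3%, beside 10.4% of all autosomal genes) and all below for 7 (6.25%, beside 9.69%). Without XX KO replicate 2 these medians were -0.34 and 0.28, and with the trend on transcript length and GC removed they were -0.24 and 0.20. Over all autosomal genes the median was 0.02.

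The summed level of Sertoli products was far below that of XY controls in both KO groups. Of 35 tested Sertoli products, 4 were called between mutants (Dhh, Cst9, Aard and Mmd2), all higher in XY KO gonads, where 0.087% of autosomal genes were. The median log2 fold change of the 35 was -0.29. An unadjusted p under 0.05 was held by 14 higher in XY KO and 2 higher in XX KO gonads. The autosomal shares were 9.21% and 9.89%. The XY KO libraries were all above for 10 and all below for 3, beside 9.69% and 10.4% of autosomal genes. With the length and GC trend removed 6 of the 35 were called, all higher in XY KO gonads, where 0.0943% of autosomal genes were. Between controls 32 of the 35 were called, all higher in XY, where 12.4% of autosomal genes were. Between mutants 6 were called without XX KO replicate 2 (12.6% of autosomal genes were): those 4 and Hsd17b3 higher in XY KO gonads, and Inha, an inhibin subunit chosen here after its value was seen, higher in XX KO gonads. Their summed level was 566 to 681 CPM in XX KO, 582 to 666 CPM in XY KO, 4411 to 5702 CPM in XY control and at most 602 CPM in XX control gonads. In bulk RNA, fewer Sertoli cells and less RNA per cell cannot be told apart. Amh, the hormone that removes the Müllerian ducts, was at 1.05, 1.18 and 0.472 CPM in XX KO and at 1.05, 2.63 and 3.19 CPM in XY KO gonads, beside 646 to 1132 CPM in XY controls. The KO groups overlapped, and its difference of -1.36 on the log2 scale (standard error 0.41, FDR = 0.235) did not pass. It did with the length and GC trend removed (FDR = 0.0147), and not without XX KO replicate 2 (FDR = 0.0531). Without that library and with the trend removed as well, Amh passed (log2 fold change -2.33, FDR = 0.00418).

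Other Sertoli products did not pass with all libraries and no trend removed. Ptgds, a prostaglandin D synthase, was at 1.68, 1.4 and 2.43 CPM in XX KO and 2.69, 2.9 and 3.14 CPM in XY KO gonads (log2 fold change -0.70, FDR = 0.235). Cbln4 and Hsd17b3, an enzyme of testosterone synthesis, gave -0.69 and -2.12, also without overlap of the libraries. Hsd17b3 passed without XX KO replicate 2 (-2.81, FDR = 0.0297), and with the trend removed as well it did not (FDR = 0.0622). Cyp26b1, which breaks down retinoic acid, gave -0.61 with overlap. Erbb4, a neuregulin receptor, and Inhbb, an inhibin subunit, gave -0.16 and 0.04, and both signs turned with the trend removed.

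None of the 14 Sertoli transcription factors was called with edgeR. An unadjusted p under 0.05 was held by 3, all higher in XY KO gonads (9.21% of autosomal genes in that direction), and DESeq2 called 2, Sox9 and Sox10 (0.254%). Sox9 was at 4.77, 10.1 and 8.39 CPM in XX KO and at 9.12, 18.7 and 21.3 CPM in XY KO gonads, beside 117 to 143 CPM in XY controls. XY KO replicate 1 fell within the XX KO range. The log2 fold change was -1.08 (standard error 0.29, FDR = 0.235). Without XX KO replicate 2 the FDR was 0.0271, and 0.0973 with the trend removed as well. Sox10 was at 0.263, 0.294 and 0.0363 CPM in XX KO and at 0.468, 1.28 and 1.26 CPM in XY KO gonads (log2 fold change -2.26, FDR = 0.235). It passed without XX KO replicate 2 (FDR = 0.0273), also with the trend removed as well (FDR = 0.0326). Sox8 and Dmrt1 gave 0.27 and 0.04, and Fgf9, the growth factor that maintains Sox9, gave -0.41. Nr0b1, which is X-linked, gave 0.03 and Gadd45g gave 0.36. The signs of Dmrt1, Nr0b1 and Gadd45g turned with the trend removed.

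Hedgehog targets did not follow the Dhh difference past the threshold. None of 13 hedgehog pathway genes was called with edgeR or DESeq2, and 1 had an unadjusted p under 0.05, where 19.1% of autosomal genes did. Ptch1 and Gli3 were called without XX KO replicate 2, both higher in XY KO gonads, where 7.86% of autosomal genes were called in that direction. Genes outside the naming rule, such as Gli3, were picked here for these calls. Ptch1, the receptor and a target of the pathway, was at 18, 50 and 26 CPM in XX KO and 41, 49.1 and 53.4 CPM in XY KO gonads, with XX KO replicate 2 inside the XY KO range. Its log2 fold change was -0.61 (FDR = 0.288), and -1.13 (FDR = 0.0234) without that library, or FDR = 0.205 with the trend removed as well. Gli1, a target transcription factor, and Hhip, an inhibitor of the pathway, gave 0.06 and -0.22, and both signs turned with the trend removed. Of 15 steroidogenic and Leydig cell genes none was called by either tool. At an unadjusted p under 0.05, 3 were higher in XX KO and 1 higher in XY KO gonads. The autosomal shares in these directions were 9.89% and 9.21%. Genes called without XX KO replicate 2 numbered 3, all higher in XX KO gonads, where 4.75% of autosomal genes were: Hsd3b1 (1.07, FDR = 0.0393), Fdxr and Agtr1a. None was called with the trend removed as well. Their sum was 342 to 458 CPM in XX KO and 356 to 384 CPM in XY KO gonads, against 1685 to 2823 CPM in XY controls, and Ren1 was at 0 in all 6 KO libraries. Cyp11a1 and Star, which start steroid synthesis, gave log2 fold changes of -0.33 and -0.12, and the steroid enzymes Cyp17a1 and Hsd3b1 gave 0.87 and 0.78. Insl3, a Leydig cell hormone, gave 0.38 and turned sign with the trend removed.

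Of 22 pre-granulosa genes, Irx3 was the 1 called, 8 had an unadjusted p under 0.05, each higher in XX KO gonads (9.89% of autosomal genes in that direction), and the median log2 fold change was 0.30. Leaving out XX KO replicate 2 gave 5 calls (Wnt4, Rspo1, Irx3, Irx5 and Znrf3). Of these, 4 were higher in XX KO and 1 higher in XY KO gonads, beside 4.75% and 7.86% of autosomal genes. With the trend removed as well 1 was called, where 1.33% of autosomal genes were. Foxl2, which maintains ovarian identity, was at 61.2, 43.6 and 46.5 CPM in XX KO, 19.8, 35.4 and 40.3 CPM in XY KO and at most 1.65 CPM in XY control gonads. The KO libraries did not overlap, yet the difference of 0.66 on the log2 scale (standard error 0.26, FDR = 0.235) did not pass. Wnt4, the ovarian Wnt ligand, was at 423, 263 and 404 CPM in XX KO and 202, 201 and 250 CPM in XY KO gonads (log2 fold change 0.74, FDR = 0.235). Without XX KO replicate 2 its FDR was 0.0296, and 0.0942 with the trend removed as well. Rspo1, which strengthens Wnt signals, gave 0.46 (FDR = 0.0263 without that library), and -0.04 with the trend removed. Bmp2, Fst and Lhx9 gave 0.34, 0.16 and -0.13 (Lhx9 turned sign with the trend removed), and none of these 3 passed with or without it.

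At E11.5 none of the 13 genes passed. All 13 were tested there between the KO sexes, 0 were called by edgeR (0.0219% of autosomal genes were, 0.0146% higher in XX KO and 0.00731% higher in XY KO samples) or by DESeq2, 0 had an unadjusted p under 0.05, and 8 had the sign seen at E12.5. Dhh was at 1.72, 0.51 and 2.08 CPM in XX KO and 1.37, 1.18 and 1.69 CPM in XY KO samples, and 6.06 to 31.3 CPM in XY controls. Itga4 ranged from 17.2 to 24.8 CPM in XX KO samples and from 22.5 to 26.5 CPM in XY KO samples, which overlap. The E11.5 samples held gonad and mesonephros together and were made with another kit, so stage, tissue and kit cannot be told apart.

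Leaving out XX KO replicate 2 raised the number of autosomal calls from 13 to 1734 of 13753 tested (12.6%), with 653 (4.75%) higher in XX KO and 1081 (7.86%) higher in XY KO gonads. All 13 genes were still called, with FDR values between 0.00273 for Gdnf and 0.0183 for Aard. The added calls divided by transcript length. The median length was 1694 bases for genes higher in XX KO and 6786 bases for genes higher in XY KO gonads, beside 3372 bases for all autosomal genes, and the median GC content was 56.2% and 44.3%. When the trend of each library on length and GC was removed as well, 183 autosomal genes (1.33%) were called, 134 (0.974%) higher in XX KO and 49 (0.356%) higher in XY KO gonads, and 86 were called both with and without that removal. Among the 13, Cadps (FDR = 0.0547), Itga4 (FDR = 0.0771) and Tacr3 (FDR = 0.0658) did not pass in that fit. The same 3 did not pass when the trend was removed with all libraries kept, where 14 autosomal genes (0.102%) were called.

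The largest differences without XX KO replicate 2 included 5 of the 13 genes. By the naming rule, Adamtsl3, Gdnf, Dhh, Nt5e, Mmd2, 4930565N06Rik, Eya4, Xkr4, Ptar1 and Akap6 were higher in XY KO gonads, and Amn, Cd74, Gp9, Cited4, Lbx2, Ppbp, 4932435O22Rik, Myh7b, Lrrc4b and Fam131c higher in XX KO gonads. Their transcripts ranged from 2416 bases (4930565N06Rik) to 14847 bases (Akap6) on the XY KO side and from 817 bases (Lbx2) to 6163 bases (Myh7b) on the XX KO side, so the lengths overlapped. With the trend removed 7 of the 20 were still called: the 5 genes above, Ppbp (FDR = 0.0349) and Lrrc4b (FDR = 0.0446).

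The 13 calls differed in how far they depended on the processing. Over 23 alternatives (other scaling, filters, tests, libraries left out, and the length and GC trend), Coch was called in all 23, and Adamtsl3, Cst9 and Dhh in 22, each lost only when the 6 KO libraries were fitted without the controls. Gldn and Nt5e were called in 20, Gdnf and Mmd2 in 16, Itga4 in 15, Irx3 in 12, Cadps in 11, Aard in 7 and Tacr3 in 4. Leaving out single libraries, controls included, left between 5 and 13 of the 13 called. Only Adamtsl3, Coch, Cst9 and Dhh were called whichever of the 12 libraries was left out. No alternative turned the sign of any of the 13.

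**Figure D5:**
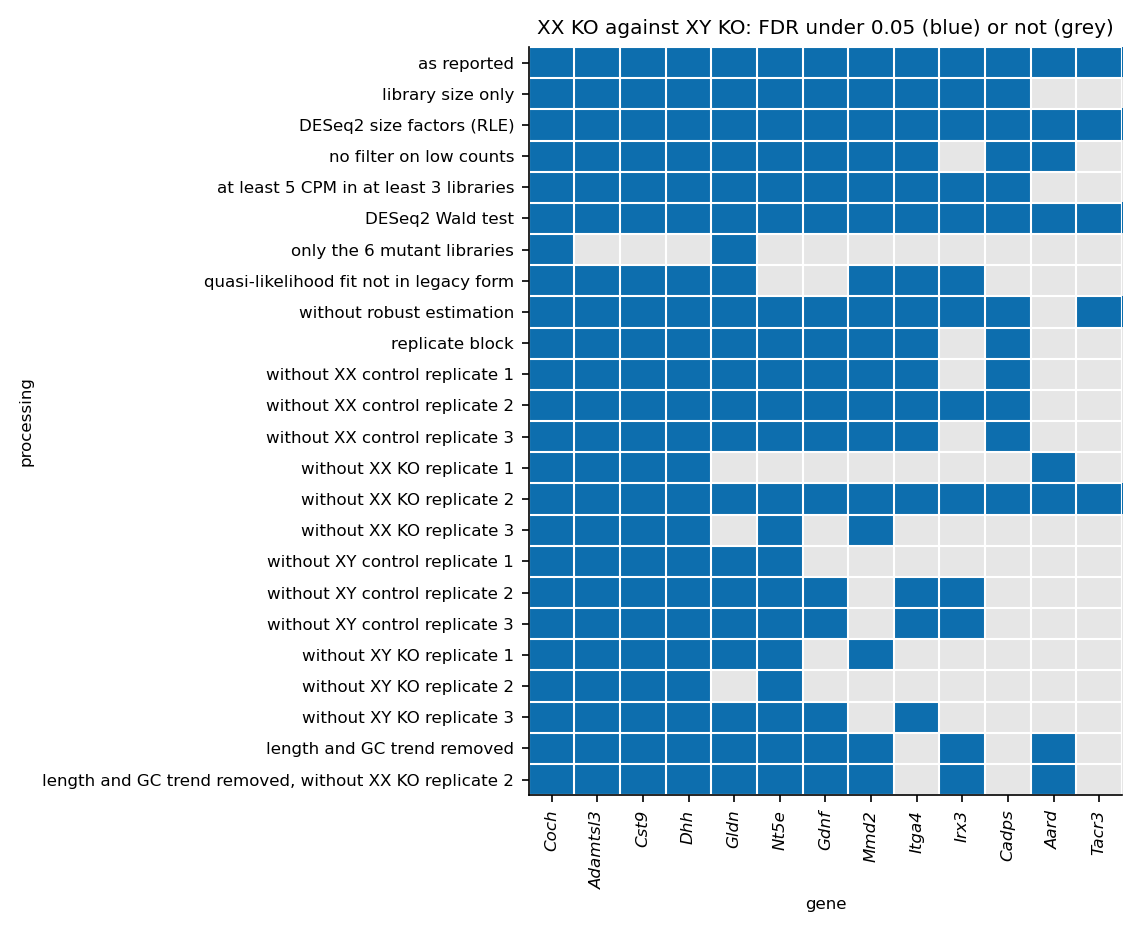
Whether each of the 13 genes (columns, ordered by number of calls) had an FDR under 0.05 (blue) or not (grey) between XX KO and XY KO gonads under each way of processing (rows). Coch, Adamtsl3, Cst9 and Dhh are blue in every row that leaves out a library, and Tacr3 in 1 of the 12.

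RefSeq promoter sequences (GRCm38, 250 bases before to 50 after the start) were found for 12 of the 13 genes, 13 promoters in all. On both strands 3 short motifs were counted, because SOX and GATA factors act in supporting cells. AACAAT was in none of them and in 10.7% of 32851 promoters, ACAAAG was in Cst9 alone and in 18.7%, and GATAA was in 3 of the 12 (Cst9, Dhh and Gdnf) and in 25.4%. The counts are of genes and the percentages of promoters, and they do not set the 12 genes apart. The Gdnf window lies within the gene positions given above, so it belongs to an internal start site. The windows are shown for the Sertoli genes with a match, with the motif in capitals, read along the gene's strand, where CTTTGT and TTATC are the motifs on the opposite strand.
Cst9, chr2:148834983-148835012, plus strand: tgaagacgttgaCTTTGTtttttccttagg
Cst9, chr2:148835167-148835196, plus strand: aagagctaagacagACAAAGcagtagctgt
Cst9, chr2:148835079-148835108, plus strand: gtacatgactgtGATAActgaggaggagtc
Dhh, chr15:98898744-98898773, minus strand: gtagaaggatgcTTATCcaggcagccagga
Gdnf, chr15:7813632-7813661, plus strand: caaactgagataGATAAataaataaataaa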

How the data were processed

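Bulk RNA-seq of gonads was analysed from the count tables of E12.5 and E11.5. Per the methods, the authors aligned reads of stranded libraries to mm10 with Subread and made the deposited counts, whole reads per gene, with featureCounts. The annotation, the strand setting and tool versions are not given in the sources used here. Groups followed the labels, and 12 columns that matched no sample were not used. Of 21699 genes in the E12.5 table, a minimum of 1 CPM in 2 or more libraries kept 14348, which were tested with edgeR 4.0.16 (R 4.3.3, limma 3.58.1): TMM scaling, 1 mean per genotype over all 12 libraries, robust quasi-likelihood test in its legacy form, Benjamini-Hochberg FDR under 0.05. Autosomal genes were then counted. The biological coefficient of variation was 0.172. The E11.5 table was fitted alone.

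Alternatives were DESeq2 1.42.0, other scaling, filters and fits, a replicate block, leaving out each library, and, added after the data were seen, removal of each library's trend on transcript length and GC (mgcv 1.9.3). Gene positions, lengths and GC come from GENCODE M21 (GRCm38). The fit was tested on simulated data of 14348 genes, 200 of them changed in XX KO. It recovered 72.5% of 2-fold and 97.5% of 4-fold changes. The simulated libraries had no trend on length or GC, so these shares need not hold for the real ones. Distances use log2 CPM with a prior count of 2.

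Members and gene lists were chosen with earlier results of these data known. Named were all called genes, a set of genes from the lists, and the 10 autosomal genes each way with the largest change without XX KO replicate 2, chosen from called genes whose mean reached 1 CPM and whose groups stood apart. Of the 22 lists, the mitochondrially encoded and histone lists had no member in the table. Library totals of 15117684 to 44155275 counts in KO gonads give low genes the least precision. Columns with the same number were not treated as pairs, since the labels link them to no shared litter or day.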

Additional observations from a re-analysis of the deposited data

Results flagged for a closer look

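For 10 of the 13 autosomal genes the sex difference in mutants differed from that in controls, by the edgeR interaction test. Interaction log2 values were 5.47 for Dhh, 4.83 for Gdnf, 4.44 for Cst9, 4.04 for Mmd2, 3.52 for Aard, 3.51 for Nt5e, 2.31 for Cadps, 2.17 for Itga4 and 2.02 for Tacr3, where a positive value means a smaller male excess in mutants. Irx3 gave -3.67, a smaller female excess in mutants. The adjusted p-values ranged from 9.82e-07 for Dhh to 0.000487 for Itga4, and 12.8% of autosomal genes passed the same test.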

How the results depend on the processing

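The comparison of XX KO with XY KO gonads gave 22 genes, 13 of them autosomal, where DESeq2 called 66 and 53, the fit of the 6 KO libraries alone 11 and 2, the fit not in legacy form 8 autosomal genes, and removal of the length and GC trend without XX KO replicate 2 gave 210 and 183. Leaving out 1 library gave 13 to 1828 genes and 5 to 1734 autosomal genes, the highest without XX KO replicate 2 and the lowest autosomal counts without XX KO replicate 1 or XY KO replicate 2. XY KO against XX control gonads gave 164 to 927 genes when 1 library was left out and 1445 with the trend removed, against 721. At E11.5 the range was 8 to 202, the highest without XY control replicate 2, against 12. With a replicate block, 20 genes (11 autosomal) were called between mutants, 3164 between controls, 1716 for the interaction, 540 for XY KO against XX control and 9 at E11.5. Aard, Irx3 and Tacr3 were lost under the block. Same-numbered XX KO and XY KO libraries correlated in their deviations at 0.18, 0.00 and 0.18, and 4 of 12 libraries correlated best with their own number. These values gave no sign of pairing by number, and a shared litter or day was not tested. Over the single genes, 1437 values kept their direction and side of the threshold, 33 passed newly, 89 no longer passed and 49 turned sign, none of these a called gene. With the trend removed, log2 fold changes were -0.12 for Dmrt1, -0.24 for Nr0b1, -0.14 for Gadd45g, 0.21 for Erbb4, -0.34 for Inhbb, -0.22 for Gli1, 0.13 for Hhip, -0.17 for Insl3, -0.042 for Rspo1, 0.17 for Lhx9, 0.19 for Mir17hg, -0.32 for Pou5f1 and 0.12 for Sycp3. Without XX KO replicate 2 as well, they were -0.20 for Dmrt1, -0.23 for Nr0b1, -0.13 for Gadd45g, -0.31 for Inhbb, -0.41 for Gli1, 0.050 for Star, -0.11 for Insl3, 0.31 for Lhx9, 0.24 for Mir17hg, -0.47 for Pou5f1, -0.051 for Rec8 and 0.11 for Sycp3. Leaving out 1 library, the lowest and highest were -0.090 and 0.20 for Dmrt1, -0.18 and 0.29 for Nr0b1, -1.44 and 0.33 for Erbb4, -0.22 and 1.86 for Insl3, -0.028 and 0.33 for Fst, -0.10 and 0.23 for Pou5f1, -2.01 and 0.087 for Eya4, -0.21 and 0.57 for Gli1, -0.86 and 0.083 for Hhip, -0.095 and 0.066 for Mir17hg, -0.31 and 0.048 for Sycp3, and -0.094 and 0.12 for Inhbb. The causes of these changes were not tested. Depth limits Gdnf, Mmd2 and Adamtsl3 most, whose lowest XX KO counts were 6, 8 and 9.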

Other observations

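Pluripotency and meiosis genes of germ cells did not separate the KO sexes. None of 17 pluripotency genes of germ cells and none of 14 meiosis genes passed between the mutant sexes with edgeR or DESeq2, and none had an unadjusted p under 0.05. Of 11 tested genes of male germ cells none was called by either tool. An unadjusted p under 0.05 was held by 1 each way, beside 9.89% (higher in XX KO) and 9.21% (higher in XY KO) of autosomal genes. Without XX KO replicate 2, Lefty2 was called higher in XY KO gonads, where 7.86% of autosomal genes were. No male germ cell gene was called with the trend removed as well. Rec8, a meiotic cohesin subunit, was at 64.8, 79.6 and 90.9 CPM in XX KO and at 47.6, 73.1 and 61.9 CPM in XY KO gonads, against 2.87 to 6.76 CPM in XY controls. Stra8, which starts meiosis, was at 25.8, 16.6 and 22.4 CPM in XX KO and at 20.9, 21.9 and 5.08 CPM in XY KO gonads, and at most 0.217 CPM in XY controls. KO libraries overlapped for both genes. For Rec8 every XY KO library was below every XX control library (82.1 to 89.7 CPM), and for Stra8 the XX controls ran from 0.877 to 44.3 CPM. Nanos2, a gene of male germ cells, was at most 0.0726 CPM in any KO library and 0.607 to 2.53 CPM in XY controls. Pou5f1, a pluripotency factor, was at 68.7 to 110 CPM in XX KO, 65.8 to 96 CPM in XY KO and at least 141 CPM in every control library. Sycp3, of the synaptonemal complex, gave a log2 fold change of -0.13 between mutants.

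Sry was at 2.22, 3.17 and 2.57 CPM in XY KO gonads and at 0, 0.217 and 0.348 CPM in XY control gonads, and at 0 in all XX libraries. Its XY KO and XY control libraries did not overlap. Of 20 lists with a tested member, 16 had no gene called between the KO sexes with edgeR. Beyond the lists described above, unadjusted p-values under 0.05 were held by 5 of 20 mesonephric genes, 5 of 14 stress genes and 3 of 7 coelomic epithelium genes higher in XX KO gonads, where 9.89% of autosomal genes were. The counts on the XY KO side of these lists were 1, 0 and 0, where 9.21% of autosomal genes were. Without XX KO replicate 2 these lists had 3, 2 and 1 called genes, where 12.6% of autosomal genes were called. None of their genes was called with the trend removed as well, where 1.33% of autosomal genes were.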
